A study of Mus musculus with 9 samples.

Results

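Cyp17a1, Hsd17b6, Hsd17b2, Hsd3b5, Hsd11b1, Srd5a1, Akr1c6, Akr1c18 and Serpina6 encode enzymes that make, activate or break down steroid hormones in the mouse liver and 1 plasma carrier of glucocorticoids. These 9 genes of 16521 in the deposited data were taken by symbol, each was found in both tables, and all 9 passed the filter on low values. Akr1c18 passed it only through the group in which it was high. Cyp17a1 and Hsd17b6 were chosen by their deposited group means, which moved further from normal under treatment, so their values are given as a description with no test. The other 7 were listed with earlier results of these data known.

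Liver RNA of 9 C57BL/6 mouse samples was sequenced, 3 in each of 3 groups. The SAR group received a methionine and choline deficient (MCD) diet together with a high dose of sarsasapogenin (SAR) (a steroidal sapogenin). The dose is not stated. The model group received the MCD diet alone, which leads to fatty liver, and the normal group received no MCD diet and was given saline. All mice were C57BL/6, and no age, sex or duration of diet is stated. SAR against model therefore differs by the compound and any vehicle given with it. Model against normal differs by the diet and, as described, by the saline, and SAR against normal by all of these. The parts of diet or compound and of saline or vehicle cannot be told apart. The labels do not say that the samples of a group came from separate mice. A p-value here reflects how much samples varied within all 3 groups together, also the group outside the comparison, and part of that may be technical.

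Steroid hormones are made mainly in the adrenal cortex and the gonads. The liver reactivates glucocorticoids, reduces and oxidises androgens, oestrogens and progestins, adds glucuronic acid or sulphate to them, and secretes their carriers. In the mouse liver many of these genes are expressed at different levels in males and females under the control of the growth hormone rhythm, and Hsd3b5 is a classical example of a gene of male liver. Transcripts of the Y-linked genes Ddx3y and Eif2s3y were present in all 9 libraries, at 557 or more and 480 or more normalised reads.

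The sequence before the start of 4 of the genes is shown because these 4 moved in different directions, Akr1c6 and Akr1c18 being relatives on 1 chromosome. Each line gives the 250 bases before the start of the gene, 5′ to 3′ on the gene's own strand, from RefSeq on GRCm38.p6. Capitals mark matches on either strand to TATAAA, to CCAAT or to TGNACTTTG, a motif of hepatocyte nuclear factor 4.
Hsd17b6 (chr10:128007612-128007861, minus strand): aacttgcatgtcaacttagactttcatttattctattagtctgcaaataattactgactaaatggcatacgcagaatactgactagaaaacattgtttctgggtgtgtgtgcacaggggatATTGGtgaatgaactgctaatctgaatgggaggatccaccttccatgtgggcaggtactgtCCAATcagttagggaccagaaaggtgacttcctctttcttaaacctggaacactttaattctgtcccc
Hsd3b5 (chr3:98645535-98645784, minus strand): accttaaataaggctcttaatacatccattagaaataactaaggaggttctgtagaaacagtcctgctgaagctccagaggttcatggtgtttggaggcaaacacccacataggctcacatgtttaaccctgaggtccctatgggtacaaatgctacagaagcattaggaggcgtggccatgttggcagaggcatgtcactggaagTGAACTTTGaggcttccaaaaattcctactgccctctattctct
Akr1c6 (chr13:4434093-4434342, plus strand): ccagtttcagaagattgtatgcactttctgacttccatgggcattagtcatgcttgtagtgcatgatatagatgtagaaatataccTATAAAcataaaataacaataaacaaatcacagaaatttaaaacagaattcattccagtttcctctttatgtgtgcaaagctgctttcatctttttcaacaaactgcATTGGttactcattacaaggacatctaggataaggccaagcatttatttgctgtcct
Akr1c18 (chr13:4150647-4150896, minus strand): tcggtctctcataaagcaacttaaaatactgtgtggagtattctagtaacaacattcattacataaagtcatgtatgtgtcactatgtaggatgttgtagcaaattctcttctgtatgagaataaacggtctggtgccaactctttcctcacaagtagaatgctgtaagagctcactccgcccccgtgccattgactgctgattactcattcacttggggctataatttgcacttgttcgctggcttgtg

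Promoter sequences matched for Hsd17b6, Hsd3b5, Hsd11b1, Srd5a1, Akr1c6 and Akr1c18, and not for Cyp17a1, Hsd17b2 and Serpina6. Hsd17b6 had 2 listed starts, of which the first is shown. TTCNNNGAA, a motif of STAT factors, the half-site AGAACA of the glucocorticoid receptor and the half-site AGGTCA of other nuclear receptors had no match in the 250 bases of any of the 6 genes. Over 32851 listed promoters of the same length they matched 7.02%, 16.1% and 14%. CCAAT matched in the promoters of Hsd17b6, Hsd11b1, Srd5a1 and Akr1c6 and in 33.8% of all promoters, TATAAA in that of Akr1c6 and in 12.4% of all, and TGNACTTTG in that of Hsd3b5 and in 1.19% of all. CCAAT and TGNACTTTG were chosen after the sequences were seen, no marked match overlaps another, and a match is not a binding site.

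Reads per library were recovered from the deposited group means, and values are reads divided by size factors of 1 scale over all 9 libraries. Reads of the genes recovered in all libraries numbered between 5712110 and 6164887 in SAR libraries, 7267390 and 8064052 in model libraries and 6774670 and 7784791 in normal libraries. The means carry no replicate number, so the letters a, b and c stand for decreasing size factor within a group. Normal library c stood apart. Its log2 values across genes had a correlation of 0.93 with library a and of 0.92 with library b, where a and b reached 0.98 with each other, and neutrophil markers summed to 8202 normalised reads in it, against 122 and 264 in the others. Model library c stood apart as well, at 0.93 with library a and 0.94 with library b, where these reached 0.98 with each other. Its bile duct markers summed to 2203 normalised reads, against 10073 and 11391 in model libraries a and b.

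**Figure D1:**
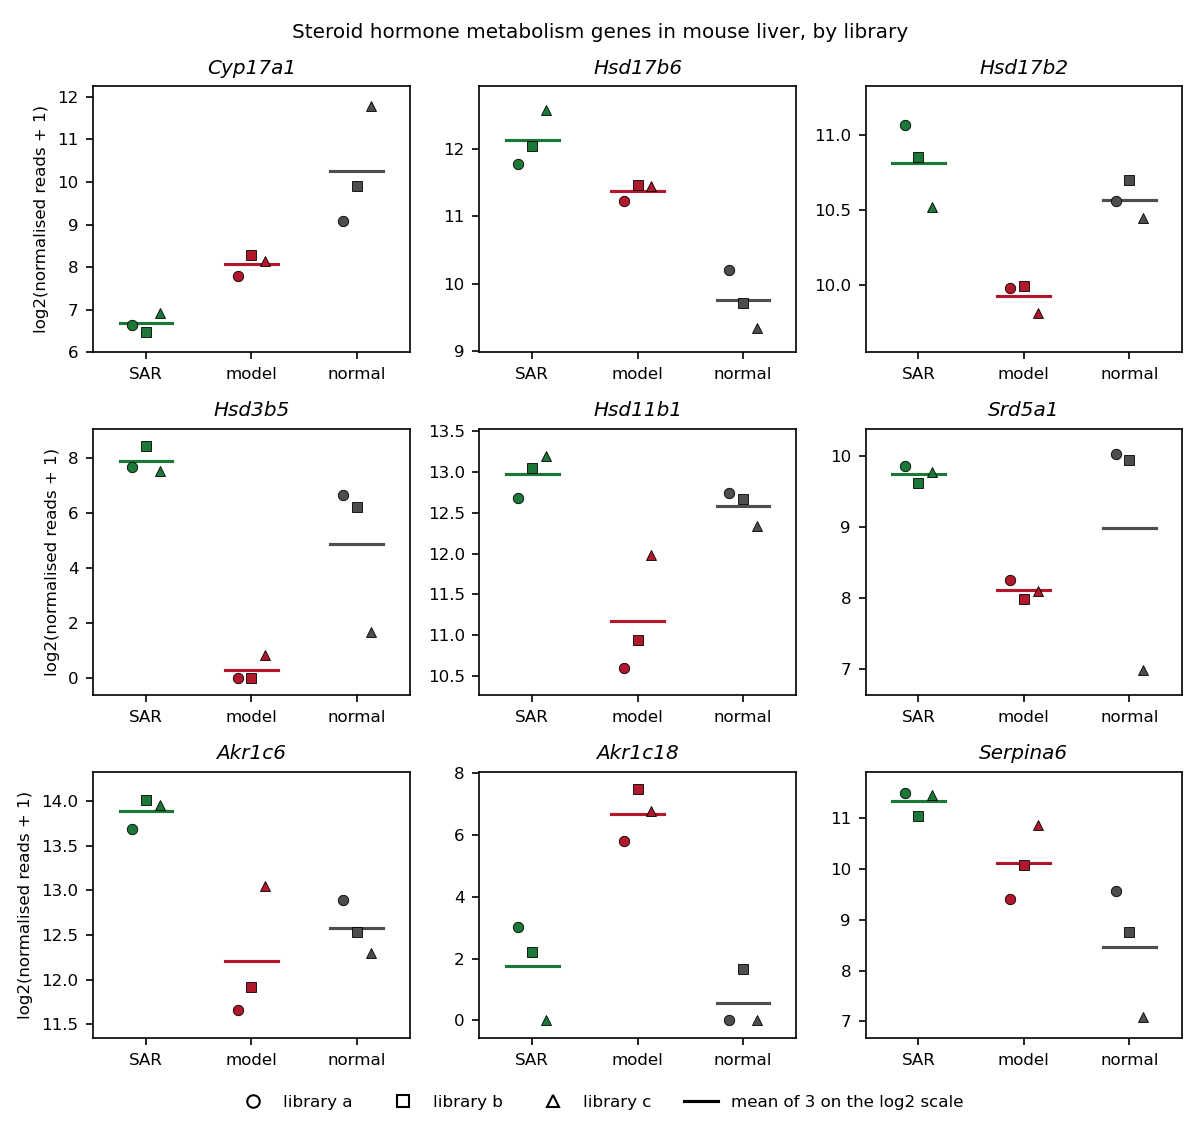
Log2(normalised reads + 1) of each of the 9 genes in SAR, model and normal livers, with 1 point per library, a symbol for library a, b or c, and a bar at the mean of 3 libraries; the vertical axes differ between panels. Hsd3b5 lies near 0 in the 3 model libraries, and Akr1c18 lies above the other groups in them. Normal library c is the lowest normal library for Hsd3b5, Srd5a1, Serpina6, Hsd17b6, Hsd17b2, Hsd11b1 and Akr1c6 and the highest for Cyp17a1.

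Cyp17a1 encodes the 17alpha-hydroxylase and 17,20-lyase that leads from pregnane steroids to the precursors of androgens. It had 99.0, 87.1 and 121 normalised reads in SAR libraries, 219, 310 and 280 in model libraries and 541, 959 and 3541 in normal libraries. The groups did not overlap, with SAR lowest and normal highest and normal library c highest of all. The mean was 102 ± 16.9 in SAR livers, 270 ± 46.0 in model livers and 1680 ± 1625 in normal livers (SD, n = 3 each). The log2 difference of SAR and model livers was -1.39, that of model and normal livers was -2.19, and that of SAR and normal livers was -3.58. Without normal library c the difference of model and normal livers was -1.44 and that of SAR and normal livers was -2.82.

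Markers of adrenal cortex and gonads, the tissues where Cyp17a1 is best known, were read in the same libraries. Cyp11a1, which starts all steroid synthesis, had 0 reads in the SAR group, 3 in the model group and 0 in the normal group. Cyp11b2, the aldosterone synthase, had 0, 0 and 1 reads in the SAR, model and normal groups, Nr5a1, the master regulator of steroid-producing cells, had 0, 1 and 0, and Hsd17b3, the testis enzyme for testosterone, had 1, 0 and 0. Other genes of these lists had more reads. Star, which carries cholesterol into mitochondria, had 51 reads in the SAR group, 110 in the model group and 71 in the normal group, and Cyp21a1, the steroid 21-hydroxylase, had 1, 24 and 2. Inhba, which encodes an activin subunit and is also expressed outside the gonads, had 124, 297 and 302 reads, with means of 50.8, 74.8 and 105 normalised reads in SAR, model and normal livers, and passed in none of the 3 comparisons (limma adjusted p = 0.184 in SAR against model, 0.277 in model against normal and 0.0856 in SAR against normal). Mrap, the partner of the corticotropin receptor, which other tissues also express, was the most abundant marker of the adrenal list, at 640 to 881 normalised reads in SAR libraries, 435 to 572 in model libraries and 810 to 1124 in normal libraries. The 8 adrenal markers read summed to 661 to 908 normalised reads in SAR libraries, 476 to 608 in model libraries and 834 to 1156 in normal libraries. The 7 gonadal markers summed to 38.7 to 87.1, 87.0 to 129 and 112 to 124 in SAR, model and normal libraries. The part of these tissues in the values of Cyp17a1 was not tested.

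Hsd3b5 encodes a 3beta-hydroxysteroid dehydrogenase relative that in mice works as a 3-ketosteroid reductase. It had 202, 346 and 185 normalised reads in SAR libraries, 0, 0 and 0.797 in model libraries and 99.9, 74.5 and 2.20 in normal libraries. All SAR libraries lay above all others, the model libraries held 1 read between them, and normal library c held 2 reads. The 3 SAR libraries together held 599 reads against that 1 read in model libraries, a ratio of 969 with an exact 95% interval of 173 to 38350, which covers counting error only. The ratio of model to normal livers, 1 read against 175, was 0.00415 (0.000105 to 0.0235). In the fit over all genes Hsd3b5 rose in SAR against model (log2 fold change 7.60 ± 1.07 SE, limma adjusted p = 0.00192) and fell in model against normal (-4.58 ± 1.07, limma adjusted p = 0.00735). Both calls were past the threshold of 0.05 in all 18 other settings, and without normal library c the fall in model against normal was -6.19. SAR against normal did not pass (3.02 ± 1.07, limma adjusted p = 0.121). It passed in 1 of 18 other settings, without the libraries c of the normal and model groups, at a smaller difference of 1.43 (limma adjusted p = 0.0312 against a range of 0.0312 to 0.270).

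Srd5a1 encodes the steroid 5alpha-reductase that reduces testosterone, progesterone and corticosteroids. It had 926, 783 and 871 normalised reads in SAR libraries, 303, 253 and 273 in model libraries and 1044, 983 and 126 in normal libraries. All SAR libraries lay above all model libraries, and the normal group held both the highest and the lowest value of the 9. The difference of SAR and model livers, 1.64 ± 0.64 on the log2 scale, did not pass with the spread of all 9 libraries (limma adjusted p = 0.0768), to which normal library c contributes. It passed with the 6 libraries of the 2 groups alone (limma adjusted p = 0.00038) and without normal library c (7.06e-05), over a range of 1.51e-05 to 0.177 in 18 other settings. In the authors' deposited results this difference passed as well (DESeq adjusted p = 2.625e-08). The difference of model and normal livers was -0.88 ± 0.64 (limma adjusted p = 0.284), and without normal library c Srd5a1 fell by 1.89 (2.82e-05). The difference of SAR and normal livers was 0.76 ± 0.64 (limma adjusted p = 0.482) and changed sign without normal library c, to -0.24 (0.334).

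Hsd17b2 encodes the oxidative 17beta-hydroxysteroid dehydrogenase that turns oestradiol and testosterone into less active 17-ketosteroids. It had 2135, 1845 and 1462 normalised reads in SAR libraries, 1010, 1017 and 899 in model libraries and 1504, 1658 and 1390 in normal libraries. The model libraries lay below all others, and SAR and normal libraries overlapped. Hsd17b2 rose in SAR against model (log2 fold change 0.88 ± 0.16, limma adjusted p = 0.00484) and fell in model against normal (-0.64 ± 0.16, limma adjusted p = 0.0103). The fall was lost under upper quartile scaling, at -0.40 (limma adjusted p = 0.0839 against a range of 0.00797 to 0.0839). In the authors' deposited results the fall also missed the threshold (DESeq adjusted p = 0.05375). SAR against normal did not pass (0.24 ± 0.16, limma adjusted p = 0.365).

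Hsd17b6 encodes an oxidative 3alpha- and 17beta-hydroxysteroid dehydrogenase of the retinol dehydrogenase type, which can regenerate dihydrotestosterone from androstanediol. It had 3495, 4235 and 6097 normalised reads in SAR libraries, 2404, 2835 and 2796 in model libraries and 1177, 836 and 649 in normal libraries. The 3 groups did not overlap, with SAR highest and normal lowest. The means were 4609 ± 1341 in SAR livers, 2678 ± 239 in model livers and 888 ± 268 in normal livers (SD, n = 3 each). The log2 difference of SAR and model livers was 0.75, that of model and normal livers was 1.63 and that of SAR and normal livers was 2.38, and without normal library c the last 2 were 1.42 and 2.17. The steps of Hsd17b6 and Cyp17a1 thus had opposite signs in each comparison, and in neither gene did SAR values lie between those of model and normal livers, which is what they were picked for.

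Akr1c6 encodes the mouse 17beta-hydroxysteroid dehydrogenase type 5, an aldo-keto reductase that makes testosterone from androstenedione. It had 13151, 16489 and 15898 normalised reads in SAR libraries, 3243, 3871 and 8464 in model libraries and 7593, 5912 and 5037 in normal libraries. All SAR libraries lay above all others, and model library c lay above all normal libraries, where model libraries a and b lay below them. Akr1c6 rose in SAR against model (log2 fold change 1.67 ± 0.34, limma adjusted p = 0.00793). The difference of model and normal livers was -0.36 ± 0.34 (limma adjusted p = 0.415), and without model library c Akr1c6 fell by 0.78 (0.0183). The difference of SAR and normal livers, 1.31 ± 0.34, just missed the threshold (limma adjusted p = 0.0588) and passed in 4 of 18 other settings, such as the 6 libraries of the 2 groups alone (limma adjusted p = 0.0295), over a range of 0.00531 to 0.153.

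Akr1c18 encodes a 20alpha-hydroxysteroid dehydrogenase, which inactivates progesterone. It had 7.16, 3.63 and 0 normalised reads in SAR libraries, 54.7, 178 and 109 in model libraries and 0, 2.16 and 0 in normal libraries. All model libraries lay above all others, and the normal libraries held 2 reads between them. The 3 model libraries held 446 reads against those 2 reads in normal libraries, a ratio of 162 (exact 95% interval 44.6 to 1343). The SAR libraries held 9 reads, a ratio to normal of 5.29 (1.10 to 50.4), which was 3.62 (0.75 to 34.5) without normal library c. These intervals cover counting error only and not the spread between libraries. Akr1c18 fell in SAR against model (log2 fold change -4.94 ± 0.90, limma adjusted p = 0.00477) and rose in model against normal (6.14 ± 0.90, limma adjusted p = 0.000882). Both calls held in the 17 other settings that tested the gene. SAR against normal did not pass (1.19 ± 0.90, limma adjusted p = 0.431).

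Hsd11b1 encodes the 11beta-hydroxysteroid dehydrogenase type 1, which regenerates active corticosterone from its inactive 11-keto form in liver. It had 6565, 8474 and 9392 normalised reads in SAR libraries, 1548, 1972 and 4064 in model libraries and 6847, 6508 and 5198 in normal libraries. All model libraries lay below all others, and model library c was the highest of them. Hsd11b1 rose in SAR against model (log2 fold change 1.80 ± 0.33, limma adjusted p = 0.00478) and fell in model against normal (-1.41 ± 0.33, limma adjusted p = 0.00705), in all 18 other settings as well. SAR against normal did not pass (0.39 ± 0.33, limma adjusted p = 0.482).

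Serpina6 encodes corticosteroid-binding globulin, the carrier of glucocorticoids in plasma, which the liver secretes. It had 2889, 2124 and 2825 normalised reads in SAR libraries, 678, 1085 and 1870 in model libraries and 757, 434 and 136 in normal libraries. All SAR libraries lay above all others, and model and normal libraries overlapped through model library a. Serpina6 rose in SAR against normal (log2 fold change 2.86 ± 0.54, limma adjusted p = 0.0249) and in model against normal (1.65 ± 0.54, limma adjusted p = 0.0323). The first call held in 13 of 18 other settings (range 0.000881 to 0.108) and was lost without a variance trend, without normal library b and without any 1 of the SAR libraries, and without normal library c the difference was 2.17. The second held in 10 of 18 (range 0.0121 to 0.109). It was lost with the 6 libraries of the 2 groups alone, and the difference was 0.95 without normal library c and 1.28 without model library c. SAR against model, 1.22 ± 0.54, did not pass (limma adjusted p = 0.115, range 0.000575 to 0.345 in other settings). It passed in 3 of 18 other settings, among them the 6 libraries of the 2 groups alone (limma adjusted p = 0.0229). The authors' deposited results differ from the main fit in both of these comparisons. There SAR against model passed (DESeq adjusted p = 0.006335) and model against normal did not (DESeq adjusted p = 0.16).

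**Figure D2:**
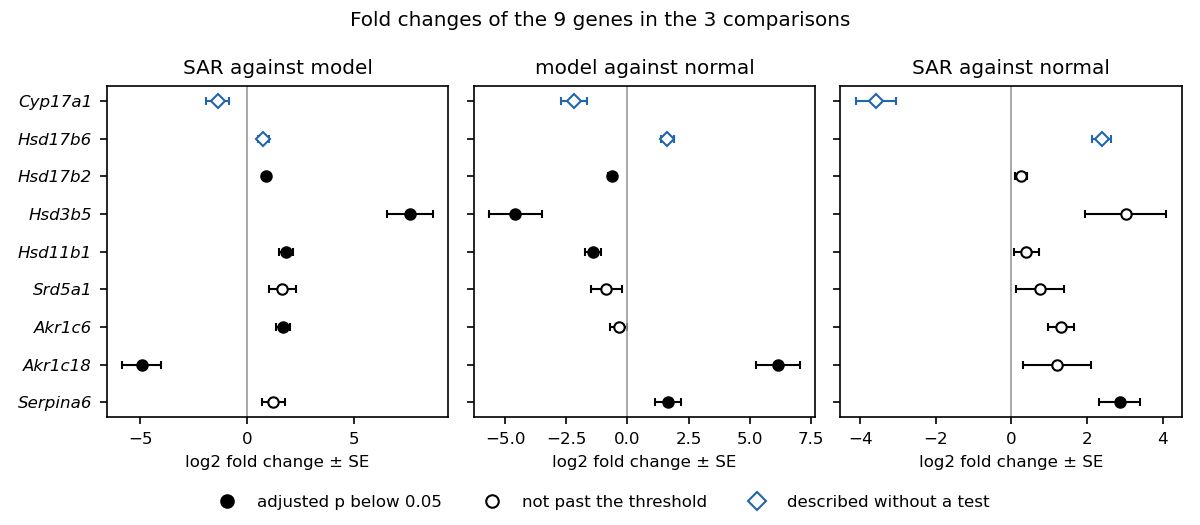
Log2 fold change with its standard error for the 9 genes in SAR against model, model against normal and SAR against normal, from 1 limma fit of 9 libraries; filled points passed an adjusted p of 0.05 over all genes tested, and diamonds mark Cyp17a1 and Hsd17b6, which were not tested. Akr1c18 is negative in SAR against model at -4.94 and positive in model against normal at 6.14, and Hsd3b5 is the reverse at 7.60 and -4.58.

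Of the 7 genes with a test, 4 rose and 1 fell in SAR against model, where 13.7% of the 12277 genes tested rose, 14.5% fell and 28.2% passed in all. In model against normal 2 of the 7 rose and 3 fell, where 21.4% of all genes rose, 21.9% fell and 43.2% passed. In SAR against normal 1 of the 7 rose, where 2.04% of all genes rose, 1.98% fell and 4.02% passed. The groups did not overlap for 7 of the 7 genes in SAR against model, for 4 in model against normal and for 3 in SAR against normal, as was the case for 44.9%, 54% and 32.3% of all genes. Nothing is read from the number of members called, since the genes were listed with these results known. Upper quartile scaling moved the median log2 difference of all genes to 0.24 in model against normal and to -0.20 in SAR against model, from 0.01 and 0.00 on the main scale. Under that scaling 3634 genes were higher and 1760 lower in model against normal, compared with 2622 and 2687 on the main scale. In SAR against model 973 were higher and 2466 lower, compared with 1683 and 1779 on the main scale. Of the 7 members' calls this scaling ended that of Hsd17b2 in model against normal and added that of Akr1c6 in SAR against normal, and it changed no direction.

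Per kilobase of exon the genes spanned a wide range of levels. In SAR livers Akr1c6 was highest at 7466 ± 876 normalised reads per kilobase, followed by Hsd17b6 at 2926 ± 851, Hsd11b1 at 1916 ± 339 and Serpina6 at 1484 ± 241 (SD, n = 3 each). In model livers the order began with Akr1c6 at 2554 ± 1402 and Hsd17b6 at 1700 ± 151, whose values overlap within their SD, and Serpina6 at 688 ± 344, Hsd11b1 at 595 ± 317 and Hsd17b2 at 507 ± 34.4 did not differ beyond their spread. Cyp17a1, Srd5a1 and Akr1c18 stood together in model livers at 97.4 ± 16.6, 94.9 ± 8.73 and 94.4 ± 51.1, and Hsd3b5 was last at 0.172 ± 0.297. In normal livers Akr1c6 at 3040 ± 639 and Hsd11b1 at 1455 ± 205 led, and Cyp17a1 at 607 ± 587 could not be told from Hsd17b2 at 789 ± 69.8 or Hsd17b6 at 564 ± 170. Akr1c18 was last in SAR and normal livers, at 2.98 ± 2.97 and 0.596 ± 1.03.

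The courses of the genes over the 9 libraries were compared by Pearson r of log2 values, which also follow the group means. Hsd3b5 went with Hsd17b2 (0.89), Hsd11b1 (0.88), Srd5a1 (0.87) and Akr1c6 (0.82). Serpina6 went with Hsd17b6 (0.92) and opposite to Cyp17a1 (-0.94), and Cyp17a1 and Hsd17b6 were opposite to each other (-0.93). These 2 were picked for moving away from normal, so a large r between them, of either sign, follows from the choice. The sets were not separate, since Akr1c6 also went with Serpina6 (0.69), and Akr1c18 went opposite to Hsd11b1 (-0.79). Of all other genes tested, Bptf, Gadd45g, Grn, Gspt2 and Tacc1 were most like Cyp17a1, at r from 0.95 to 0.97 over 9 libraries. Gadd45g had 420, 322 and 336 normalised reads in SAR libraries, 749, 662 and 677 in model libraries and 868, 1912 and 2661 in normal libraries, with normal library c highest as for Cyp17a1. Mrps25, Mad2l1bp, Apol9a, Rabac1 and Acp5 were most like Hsd17b6, at r from 0.94 to 0.98. Apol9a had 832, 907 and 1020 normalised reads in SAR libraries, 755, 739 and 866 in model libraries and 559, 410 and 271 in normal libraries, so its groups too came in the order of Hsd17b6, with a smaller range.

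Relatives of the members could share reads with them, since the counting rule for reads that fit several genes is not given in the sources used here. Of all runs of 50 bases in the transcripts of Hsd3b5, 21.2% also occur in another gene, mostly Gm10681. For Hsd17b6 this share was 12.1%, all in Rdh1, and for Srd5a1 15.1%, all in the overlapping transcript Gm17108 of the same strand. It was 1.38% for Akr1c6, 0.581% for Akr1c18 and 0 for Cyp17a1, Hsd17b2, Hsd11b1 and Serpina6. The values of Hsd3b5, Hsd17b6 and Srd5a1 are uncertain to this extent.

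The rest of the pathway was followed in 104 further genes in 8 lists by role, of which 94 were in the deposited data and 70 were tested. Counts of these lists and of the marker lists below are to be set beside the shares of all genes that passed. Those were 28.2% in SAR against model, 43.2% in model against normal and 4.02% in SAR against normal. In SAR against model 34 rose, 3 fell and 33 did not pass, and the median log2 difference was 0.91 against 0.00 over all genes. Without model library a the number past the threshold was 19 in place of 37, without model library b 20, without SAR library b 21 and without SAR library c 24. In model against normal 6 rose, 29 fell and 35 did not pass, with a median of -0.68 against 0.01, and under upper quartile scaling 11 rose and 23 fell. In SAR against normal 4 rose, 1 fell and 65 did not pass, with a median of 0.20 against 0.01.

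**Figure D3:**
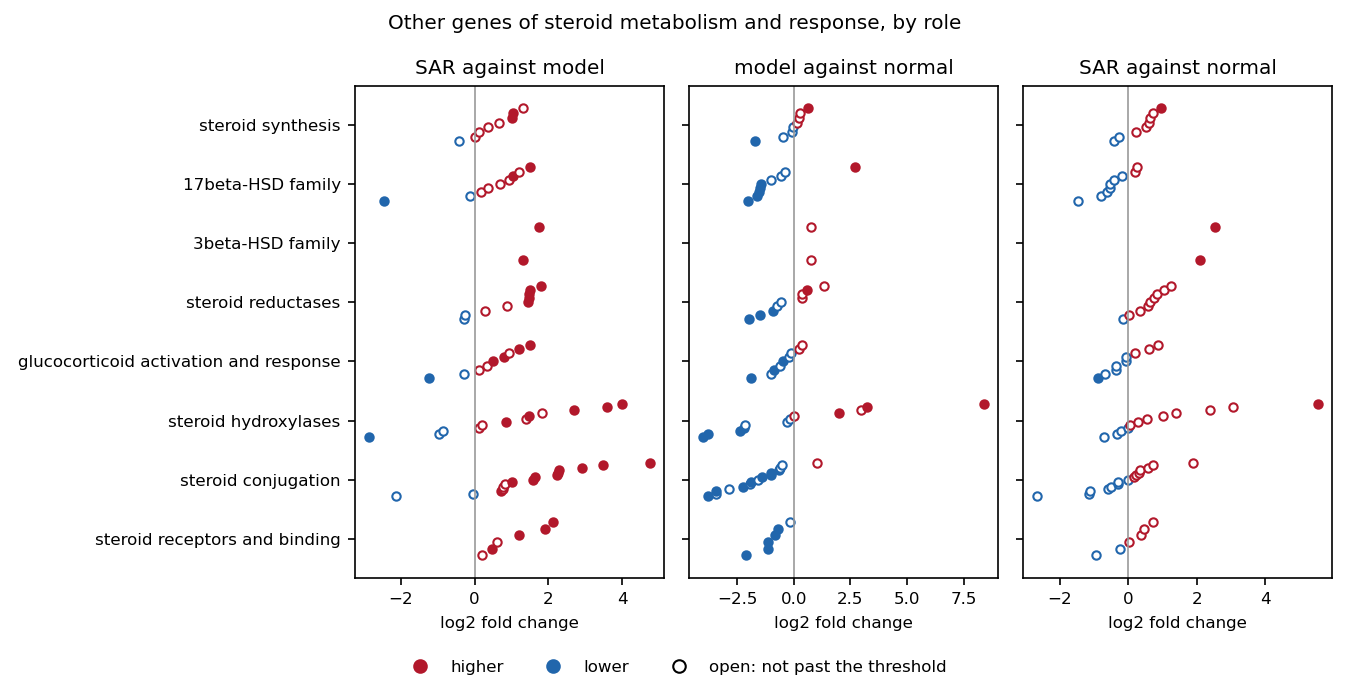
Log2 fold change of the tested genes of the 8 role lists, without the 9 members, in SAR against model, model against normal and SAR against normal; each point is 1 gene, red is higher, blue is lower and open points did not pass an adjusted p of 0.05, and a gene on several lists appears in each. In SAR against model 34 genes are filled red and 3 filled blue, and in model against normal 6 are filled red and 29 filled blue.

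The closest relatives of the members are named by family, a choice made after their values were seen. The steroid reductases hold the neighbours of Akr1c6 and Akr1c18. Akr1c12, Akr1c13, Akr1c14 and Akr1c19 rose in SAR against model, by 1.49, 1.52, 1.44 and 1.80 on the log2 scale (limma adjusted p = 0.0018, 0.0101, 0.00683 and 0.0114). Akr1c14, the 3alpha-hydroxysteroid dehydrogenase, had 2033, 2660 and 2866 normalised reads in SAR libraries, 612, 1006 and 1247 in model libraries and 1925, 1292 and 1053 in normal libraries, so its model libraries were lowest, except that model library c lay above normal library c. Akr1d1, the 5beta-reductase, rose as well (1.48, limma adjusted p = 0.0249). Of the 9 tested reductases other than members 5 rose in SAR against model, and 1 rose and 3 fell in model against normal. In model against normal these were 44.4% of the 9, near the 43.2% of all genes that passed. The rise of Akr1c19 was lost without model library a or SAR library b, and that of Akr1d1 also without model library b or SAR library c. Akr1c20, next to Akr1c6, did not pass (0.87 in SAR against model, limma adjusted p = 0.112, and 0.38 in model against normal, limma adjusted p = 0.445). Its values were 747, 1103 and 948 normalised reads in SAR libraries, 295, 409 and 1051 in model libraries and 394, 465 and 314 in normal libraries, and without model library c it rose in SAR against model by 1.40 (limma adjusted p = 0.00207). The difference of Akr1c18 was negative in SAR against model, where those of these 5 Akr1c genes were positive.

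In the 3beta-hydroxysteroid dehydrogenase family Hsd3b2 and Hsd3b3, near relatives of Hsd3b5, were the tested genes. Hsd3b2 had 511, 472 and 428 normalised reads in SAR libraries, 97.9, 124 and 221 in model libraries and 145, 82.0 and 44.1 in normal libraries. Hsd3b3 had 1212, 1313 and 976 in SAR libraries, 338, 465 and 628 in model libraries and 397, 269 and 183 in normal libraries. Both rose in SAR against model (1.75 and 1.32, limma adjusted p = 0.0114 and 0.00979) and in SAR against normal (2.52 and 2.10, limma adjusted p = 0.0145 and 0.0105), and neither passed in model against normal. Without SAR library a both calls of SAR against normal were lost, and that of Hsd3b2 also without normal library b. The rise of Hsd3b2 in SAR against model was lost without model library a. The model libraries of both genes overlapped the normal ones, and those of Hsd3b5 lay below them. Hsd3b1, the adrenal form, held 3 reads in the 9 libraries, all in the model group.

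Among genes of the 17beta-hydroxysteroid dehydrogenase family other than members, 5 of 9 tested fell and 1 rose in model against normal, and 2 rose and 1 fell in SAR against model. Those past the threshold were 66.7% and 33.3% of the 9, where 43.2% and 28.2% of all genes passed. The one that rose in model against normal and fell in SAR against model was Dhrs9, a retinol and 3alpha-hydroxysteroid dehydrogenase. It had 51.3, 30.3 and 12.8 normalised reads in SAR libraries, 195, 274 and 67.8 in model libraries and 14.4, 25.9 and 30.9 in normal libraries. Its log2 fold change was -2.45 in SAR against model and 2.71 in model against normal, and -3.04 and 3.30 without model library c. The fall in SAR against model was lost without model library a or b.

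Of the steroid hydroxylases, 5 of 12 tested rose and 1 fell in SAR against model. Cyp2d9, a testosterone 16alpha-hydroxylase of male liver, had 17675, 20529 and 25620 normalised reads in SAR libraries, 1540, 692 and 2149 in model libraries and 31104, 29807 and 10142 in normal libraries. It rose in SAR against model by 3.99 on the log2 scale (limma adjusted p = 0.00124) and fell in model against normal, to 0.0617 of the normal mean (limma adjusted p = 0.000421). Cyp7b1, the oxysterol and steroid 7alpha-hydroxylase, had 1185, 1618 and 2977 normalised reads in SAR libraries, 157, 115 and 175 in model libraries and 4292, 2986 and 688 in normal libraries, and its log2 fold changes were 3.60 in SAR against model and -3.81 in model against normal (limma adjusted p = 0.00307 and 0.00103), the second being -4.61 without normal library c. Cyp3a25 followed with 2.69 and -2.40, and Cyp3a13 with 1.47 and -2.19, where the first passed in 13 of 18 other settings. Cyp2a4, a testosterone 15alpha-hydroxylase of female liver whose near-identical relative Cyp2a5 may share its reads, went the other way. It had 143, 29.0 and 47.5 normalised reads in SAR libraries, 127, 385 and 1614 in model libraries and 0, 1.08 and 0 in normal libraries. The ratio of model to normal livers was 1968, from 2707 reads against 1 (exact 95% interval 353 to 77760), and without model library c it was 726, from 682 reads against 1 (130 to 28720). These intervals cover counting error only. Cyp2a4 fell by 2.86 in SAR against model (limma adjusted p = 0.0318), where the groups overlapped, and without model library c the difference was -1.91 and did not pass (limma adjusted p = 0.0699 against a range of 0.0215 to 0.12). Its relative Cyp2a22 rose in model against normal (3.23, limma adjusted p = 0.00697), by 2.23 without model library c. Cyp1b1, an oestradiol 4-hydroxylase, passed in model against normal (1.98, limma adjusted p = 0.0432) with overlapping groups, and passed in 7 of 18 other settings. It did not pass with the 6 libraries of the 2 groups alone (limma adjusted p = 0.0826) or without normal library c (1.35, limma adjusted p = 0.124).

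Of the 15 tested genes of steroid conjugation, 10 rose in SAR against model and 8 fell in model against normal, and no gene went the other way past the threshold in the fit of 9 libraries. With the 6 libraries of the 2 groups alone Sult1e1, the oestrogen sulphotransferase, fell in SAR against model (-2.12, limma adjusted p = 0.0248), where it did not pass in the fit of 9 libraries (-2.15, limma adjusted p = 0.223). Conjugation genes below the filter on low values were not tested. Of these, Sult2a2 had 2, 76 and 2 reads in the SAR, model and normal groups, and Sult2b1 had 0, 39 and 2. Sult2a1, Sult2a5 and Sult3a2 had at most 7 reads in any group. Sult1e1 and these untested genes were looked up after the values were seen. Sult2a8, a hydroxysteroid sulphotransferase, had 14152, 16629 and 16801 normalised reads in SAR libraries, 276, 314 and 2282 in model libraries and 12528, 9737 and 624 in normal libraries. It rose in SAR against model by 4.76 (limma adjusted p = 0.0109), by 5.74 without model library c and not past the threshold without model library a, and its normal library c lay among the model libraries. Ugt2b38 (3.48), Sult2a7 (2.92), Ugt2b1 (2.30) and Ugt1a1 (2.25), which add glucuronic acid or sulphate, also rose in SAR against model. The rise of Sult2a7 passed in 12 of 16 other settings and that of Ugt2b1 in 10 of 18. Ugt2b38 (-3.79), Sult2a7 (-3.43) and Ugt1a1 (-2.26) fell in model against normal. Without normal library c the fall of Ugt2b38 was -4.45, and without model library c that of Sult2a7 was -4.44 and that of Ugt1a1 was -2.98. The rises of Sult2a7 and Ugt1a1 in SAR against model were then 3.93 and 2.96.

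Among the genes of glucocorticoid activation and response, 4 of 9 tested rose and 1 fell in SAR against model, and 3 fell in model against normal. In model against normal 33.3% of the 9 passed, where 43.2% of all genes did. The one that fell in SAR against model was Sgk1, a kinase gene induced by glucocorticoids. Sgk1 had 292, 232 and 246 normalised reads in SAR libraries, 622, 701 and 514 in model libraries and 392, 460 and 572 in normal libraries. It fell in SAR against model by 1.24 and in SAR against normal by 0.87 (limma adjusted p = 0.002 and 0.0301), the second in 12 of 18 other settings. Fkbp5 and Tsc22d3, also induced by glucocorticoids, rose in SAR against model (1.21 and 1.51, limma adjusted p = 0.0266 and 0.00479) and were looked up after the values were seen. The call of Fkbp5 held in 14 of 18 other settings. The genes of glucocorticoid response therefore did not move in 1 direction.

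Of the 6 tested receptors and binding proteins, 4 rose in SAR against model and 5 fell in model against normal. Nr1i3, a nuclear receptor that senses steroids and drugs, had 295, 431 and 521 normalised reads in SAR libraries, 54.7, 37.4 and 363 in model libraries and 363, 413 and 426 in normal libraries, and fell in model against normal by 2.12 (limma adjusted p = 0.0245). Its model library c lay at the level of the normal libraries, and without it the fall was -3.11. The call held in 12 of 18 other settings and was lost with the 6 libraries of the 2 groups alone (limma adjusted p = 0.0526). Of steroid synthesis, 2 of 8 tested genes rose in SAR against model, which is 25%, where 28.2% of all genes passed. Fdx1, the ferredoxin that passes electrons to mitochondrial steroid hydroxylases and other enzymes, rose in SAR against normal by 0.95 (limma adjusted p = 0.0214), in 13 of 18 other settings. Fdxr, its reductase, rose in model against normal by 0.61 (limma adjusted p = 0.0314). This call held in 13 of 18 other settings and was lost with the 6 libraries of the 2 groups alone (limma adjusted p = 0.062) and without model library c (0.44, limma adjusted p = 0.0854). Srd5a3, a reductase, rose in model against normal by 0.60 (limma adjusted p = 0.0174), in 15 of 18.

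In SAR against normal the 5 pathway genes past the threshold were Cyp2a4, Hsd3b2, Hsd3b3, Fdx1 and Sgk1. This number was 9 without model library c and 2 without normal library b. It was 3 without normal library a, SAR library b or SAR library c, and 0 without SAR library a. In that last setting 16 of the 70 pathway genes tested had an unadjusted p below 0.05 in limma. So did 2050 of all 12310 genes tested.

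**Figure D4:**
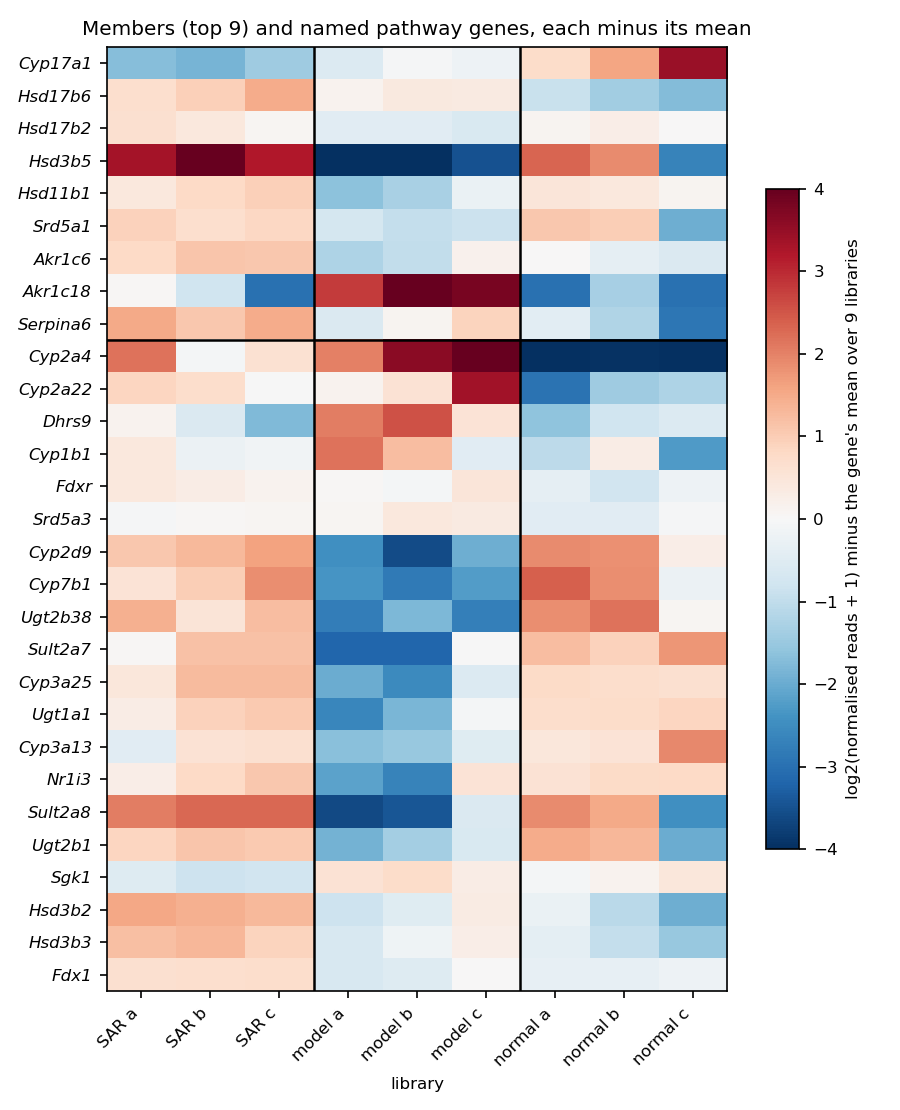
Log2(normalised reads + 1) minus the mean of each gene over 9 libraries, for the 9 members above the line and 20 named genes of the pathway below it, with SAR libraries at the left, model libraries in the middle and normal libraries at the right; colours are saturated beyond 4 in either direction. Normal library c is blue, as the model libraries are, for Hsd3b5, Srd5a1, Sult2a8 and Ugt2b1, and model library c is nearer to white or red than model libraries a and b for Akr1c6, Sult2a7 and Nr1i3.

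Lists of sex-biased liver genes were read in the same libraries, and their part in the results was not tested. Of 13 tested genes with male-biased expression in liver, 12 rose in SAR against model and 12 fell in model against normal, led by Elovl3 and Slco1a1. Elovl3 differed by 5.95 in SAR against model and by -4.88 in model against normal. It had 4736, 2656 and 1362 normalised reads in SAR libraries, 95.7, 26.7 and 26.3 in model libraries and 7379, 6956 and 35.3 in normal libraries, so model and normal livers overlapped through normal library c. Its fall in model against normal held in 9 of 18 other settings. It was lost with the 6 libraries of the 2 groups alone (limma adjusted p = 0.0727), and was -7.43 without normal library c. Its rise in SAR against model held in 12 of 18. Slco1a1 differed by 5.77 in SAR against model and by -4.76 in model against normal, and by -6.44 in the second without normal library c. The list summed to 33865 to 40076 normalised reads in SAR libraries, 7567 to 8459 in model libraries and 27561 to 46444 in normal libraries, where library c was the lowest. Ugt2b38 stands on this list and on the conjugation list. Of 17 tested genes with female-biased expression, 2 rose and 2 fell in SAR against model, and 2 rose and 5 fell in model against normal. Those past the threshold were 23.5% and 41.2% of the 17, where 28.2% and 43.2% of all genes passed.

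The tissue label was checked on hepatocyte markers, which were present in all groups. Reads of 11 of the 15 were not recovered. The other 4 summed to 21833 to 25867 normalised reads in SAR libraries, 9142 to 15782 in model libraries and 23450 to 27028 in normal libraries, and 3 rose in SAR against model and 4 fell in model against normal. For those 11 the fold of SAR over model livers in the authors' deposited table lay between 1.09 for Trf and 4.84 for Tdo2. The fold of model over normal livers in the authors' deposited table lay between 0.122 for Tdo2 and 0.877 for Alb, with 0.155 for Cps1, 0.207 for Hpd and 0.224 for Tat. In bulk samples fewer cells of a type and less RNA per cell cannot be told apart. Most markers of macrophages, of stellate cells and fibroblasts and of bile ducts moved the opposite way. Of 15 macrophage markers 11 fell in SAR against model and 10 rose and 2 fell in model against normal, with sums of 7263 to 11102 in SAR libraries, 22209 to 24755 in model libraries and 7778 to 11630 in normal libraries. Stellate and fibroblast markers summed to 4100 to 7366 in SAR libraries, 12160 to 28495 in model libraries and 1250 to 5202 in normal libraries, with 8 of 12 lower in SAR against model and 10 of 12 higher in model against normal. Bile duct markers summed to 922 to 1922, 2203 to 11391 and 577 to 1026 in SAR, model and normal libraries, with 7 of 9 tested lower in SAR against model and 8 of 9 higher in model against normal. Of 11 tested neutrophil markers 2 fell in SAR against model and 1 rose in model against normal. These were 18.2% and 9.09% of the 11, below the 28.2% and 43.2% of all genes that passed.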

How the data were processed

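Per the labels' protocols, Trizol was used to extract total RNA of liver and a NEBNext Ultra kit to build the libraries. The submitters' processing notes name the build mm9. For the aligner, the counter and strand handling, nothing is given in the sources used here. The authors deposited 2 tables, whose signal is a group mean of reads divided by DESeq size factors, per the file headers, with a fold (ratio of the means), its log2, a p-value and an adjusted p-value. The deposited means carry 15 digits and are sums of 3 whole read numbers, each times a constant of its library. Solving them gave the reads per library of 16409 of 16521 genes. Both tables hold the model group, and 16072 of 16072 genes solved alone in both gave identical reads. Of 1000 means of each group that were moved by a small amount 0 were solved. Of the IDs, 16490 matched a symbol.

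Reads were divided by size factors (medians of ratios over 9 libraries). Those genes whose mean value reached 10 were tested with limma 3.58.1 (R 4.3.3), trended variance, on log2(value + 1) in 1 fit of 9 libraries, two-sided, Benjamini-Hochberg over 12277 genes, threshold 0.05. Fold changes on this scale understate those of low genes. Ratios with 1 to 3 reads in a group carry an exact 95% binomial interval, which covers counting error and not the spread between libraries. An exact permutation test of 3 against 3 cannot go below 0.1 and was not run. Levels per kilobase used exon lengths of GENCODE vM21.

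The members and lists were chosen with earlier results of these data known. Beside the members, the text names up to 8 pathway genes per comparison and direction with the largest differences past the threshold, up to 3 of each marker list, and the 5 genes most like Cyp17a1 and Hsd17b6, and it says where others were chosen after their values were seen. Of 224 listed symbols 209 matched a gene of the tables, and the reads of 16 of these were not recovered. The recovery and the fit were tested on simulated data.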

Additional observations from a re-analysis of the deposited data

How the results depend on the processing

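The 7 tested genes kept the direction of their differences in the other settings, except Srd5a1 in SAR against normal. Its difference changed to -0.24 without normal library c and to -0.25 without the libraries c of the normal and model groups. It ranged up to 1.28 with 1 library left out, and missed the threshold throughout. The 2 described genes kept their directions too, but they were picked by direction in these same data, so nothing is read from this. Of 374 values of the 7 tested genes in other settings, 343 stayed on the same side of the threshold with the same sign, 15 passed only in the other setting and 14 no longer passed. Leaving out 1 library at a time gave 3511 to 5871 genes past the threshold in model against normal, 1410 to 4506 in SAR against model and 24 to 951 in SAR against normal, against 5309, 3462 and 493 with all 9. For the steroid pathway list it gave 24 to 43, 19 to 45 and 0 to 9, against 35, 37 and 5. Where 1 group keeps 2 libraries, these are assumed to vary like the other groups. Without the libraries c of the normal and model groups, 5444 genes passed in SAR against model, 1572 in SAR against normal, and 15 pathway genes in SAR against normal. Without a variance trend 205 genes passed in SAR against normal. No paired analysis was possible because the recovered libraries carry no replicate number. Counts of SAR against normal rest on single libraries, and genes with few reads, such as Akr1c18 and Hsd3b5 outside their high groups, are limited by depth.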
